A study of Homo sapiens with 6 samples.

Results

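The nuclear genes for the subunits of respiratory complexes II to V were compared between T24 cells that carry a constitutively active RhoC mutant and T24 cells that carry the vector. The members are 38 genes, taken by symbol with older ATP synthase names mapped to current ones. They comprise 4 genes of complex II (succinate dehydrogenase), 9 of complex III (the cytochrome bc1 complex), 10 of complex IV (cytochrome c oxidase) and 15 of complex V (ATP synthase). All 38 were found among the 58233 rows with an Ensembl identifier, and all 38 had a mean value of at least 1 and were among the 13346 genes tested. The rule itself uses symbols and no measured value.

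T24 is an established line from a human transitional cell carcinoma of the urinary bladder. The control group (VEC, n = 3 libraries) was stably transduced by lentivirus with the vector and the other group (Q63E, n = 3 libraries) with the RhoC mutant, and both were selected with puromycin. The labels do not give the promoter of the transgene, whether each line is a clone or a pool, or whether the replicates were separate cultures. The p-values therefore rest on a spread between libraries that may be technical alone. The cells of both groups keep their own RHOC gene, and its transcripts and those of the transgene fall into 1 row.

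As background, the respiratory chain passes electrons from NADH and succinate to oxygen in the inner mitochondrial membrane and pumps protons on the way. Complex II takes electrons from succinate as part of the citrate cycle, complex III hands them from ubiquinol to cytochrome c, and complex IV reduces oxygen. Complex V lets the protons back through its rotor and makes ATP. Complex II is built from nuclear subunits alone, whereas complexes III, IV and V also hold subunits that the mitochondrial chromosome encodes, so that their assembly needs products of both genomes.

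RHOC, the check on the labels, ranged from 218 to 232 in the 3 VEC libraries and from 1726 to 1770 in the 3 Q63E libraries (log2 fold change 2.94, SE 0.04, adjusted p = 3.12e-07). The values are normalised levels per gene, taken as FPKM, so sequencing depth is unknown and no counting error can be given. The summed value was 726929 to 769026 per library, and 20792 to 21379 rows lay above 0. Of the bladder epithelial markers, KRT5 and UPK3A were listed at 0 in all 6 libraries and KRT20, TP63, UPK1A, UPK1B and UPK2 reached at most 0.53. In VEC and Q63E, GATA3 had means of 1.79 and 0.36 and FOXA1 of 3.72 and 4.28, and neither passed. KRT7, KRT8 and KRT18 lay between 507 and 1512 and were higher in Q63E (log2 fold changes 0.49, 0.76 and 0.61), as were KRT19, with means of 5.67 and 161 (4.61), and PPARG, with 13.2 and 21.3 (0.65). Of the leukocyte markers, PTPRC, found on leukocytes in general, and CD3E, of T cells, were listed at 0, while CD68, a macrophage marker also found in other cells, was lower, with 18.5 in VEC and 10.1 in Q63E (−0.82, adjusted p = 0.000847). In limma with Benjamini-Hochberg adjustment over all genes, at a threshold of 0.05, 1510 genes (11.3%) were higher in Q63E and 1873 (14%) were lower. For 5853 genes (43.9%) the libraries of 1 group all lay above those of the other. Among the 5013 genes with a mean of at least 20, a range that holds all 38 members, 15.1% were higher and 20% lower.

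Of the 38 respiratory genes, 12 passed the threshold (31.6%, against 25.3% of all genes tested). In Q63E, 3 members passed as higher (against 11.3% of all genes tested) and 9 as lower (against 14%), and 26 did not pass. Of the genes with a mean of at least 20, a range that holds all 38 members, 15.1% were higher and 20% lower. Beside genes of that level, the 31.6% of the members was thus no excess. The 3 higher members were UQCRC1 of complex III and ATP5PB and ATP5PD of complex V. The 9 lower ones were SDHC, CYC1, COX6C and 6 genes of complex V, namely ATP5F1C, ATP5F1D, ATP5PF, ATP5PO, ATP5MC2 and ATP5ME. Fold changes are given here as Q63E minus VEC on the log2(value + 1) scale, which understates changes of genes with low values. The median over the members was −0.10, against −0.00 over all genes tested, with 28 members below 0 and 10 above, and 25 of the 38 (65.8%) lay within 0.2 of 0, against 52.6% of all genes tested. The groups did not overlap for 18 of the 38, against 43.9% of all genes tested. RNA was taken from whole cultures, where fewer cells with a transcript and less of it per cell cannot be told apart.

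**Figure D1:**
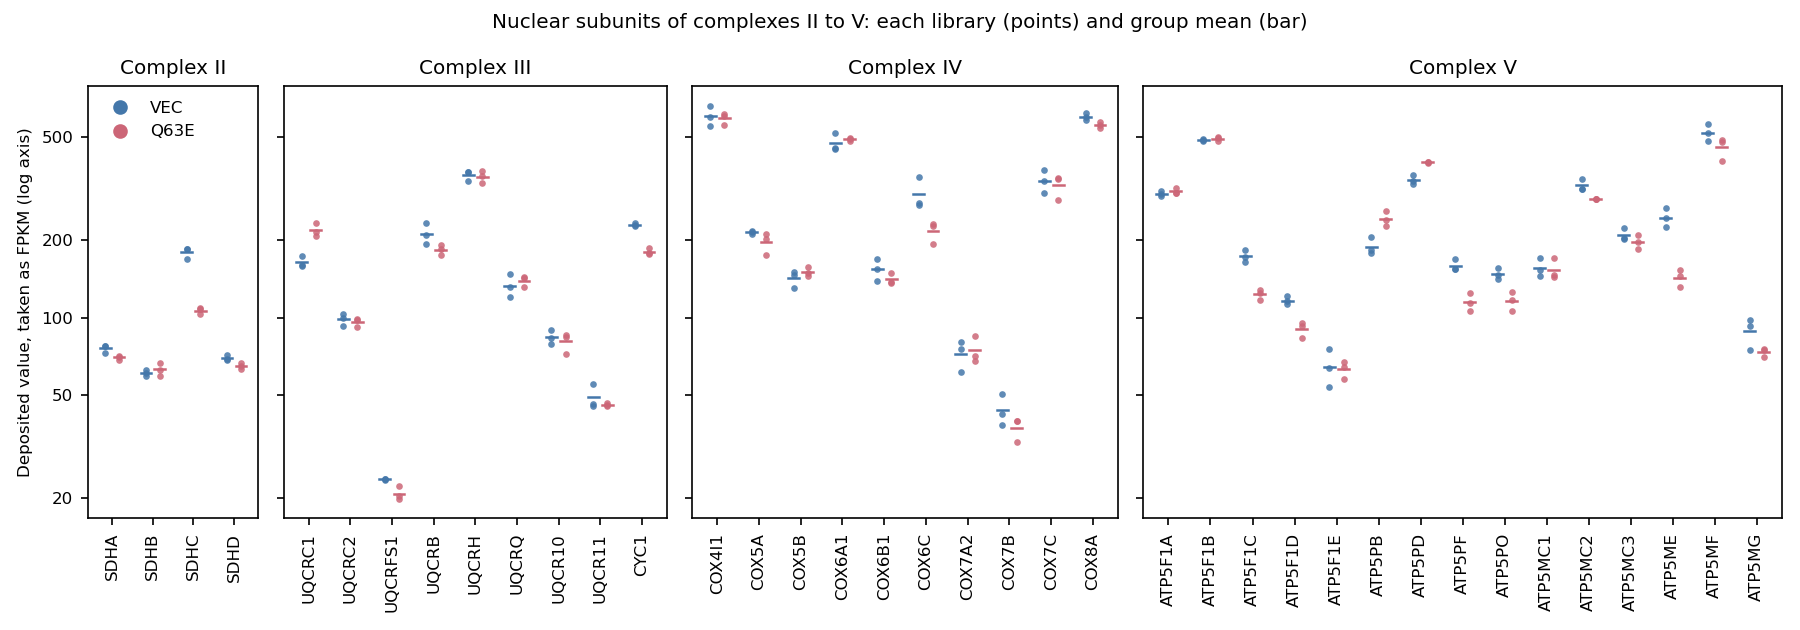
Deposited value (taken as FPKM, log axis) of each of the 38 members in each library, with VEC in blue and Q63E in red; points are the 3 libraries of a group and bars their mean. Group means run from 20.9 (UQCRFS1 in Q63E) to 602 (COX4I1 in VEC), and SDHC and ATP5ME show the widest gaps between the groups.

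Complex II was marked by 1 subunit, SDHC, which lies at chr1:161314257-161375340 on the plus strand (GRCh38, ENSG00000143252). SDHC encodes a membrane anchor that holds part of the ubiquinone site and the heme. Its level was 184, 168 and 184 in VEC and 103, 108 and 109 in Q63E. Every Q63E library lay below every VEC library, and the mean fell by 40.4%, from 179 ± 9.11 to 106 ± 2.89 (SD, n = 3 each). Its log2 fold change was −0.74 (SE 0.05, adjusted p = 0.000228), the second lowest among the members after ATP5ME.

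The other 3 genes of the enzyme did not pass. SDHA, the flavoprotein that oxidises succinate, had 77.9, 77.5 and 73.0 in VEC and 70.4, 71.3 and 68.9 in Q63E (log2 fold change −0.12, 95% interval −0.21 to −0.02, adjusted p = 0.0834). SDHD, the other membrane anchor, went from 69.7 ± 1.94 to 64.9 ± 1.65 (−0.10, adjusted p = 0.111). Both had groups that did not overlap, with differences far smaller than that of SDHC. SDHB, the iron-sulfur subunit, had 62.6, 61.0 and 59.3 in VEC and 59.4, 62.9 and 67.0 in Q63E, and its groups overlapped (0.05, interval −0.08 to 0.18). SDHC was the most abundant of the 4 transcripts in both groups, and the ratio of the highest to the lowest mean level went from 2.93 in VEC to 1.69 in Q63E. The median fold change of complex II was −0.11, with 0 of 4 members higher and 1 lower. Among all genes with a mean of at least 20, 15.1% were higher and 20% lower. Rows named as SDHA pseudogenes summed to 46.0% of the SDHA level in VEC and 51.7% in Q63E, so reads could be shared between near-identical copies and the value of SDHA is uncertain.

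In complex III, UQCRC1 and CYC1 moved in opposite directions. UQCRC1 encodes a core protein on the matrix side and CYC1 encodes cytochrome c1, which passes electrons to cytochrome c. UQCRC1 (chr3:48599002-48610976, minus strand, ENSG00000010256) had 172, 158 and 160 in VEC and 206, 233 and 214 in Q63E. All Q63E libraries lay above all VEC libraries, with a log2 fold change of 0.41 (SE 0.06, adjusted p = 0.00359), the highest among the 38 members. CYC1 (chr8:144095027-144097525, plus strand, ENSG00000179091) had 231, 227 and 225 in VEC and 177, 178 and 186 in Q63E. The groups were apart, the mean fell by 21.0%, and the log2 fold change was −0.34 (SE 0.03, adjusted p = 0.000973).

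The remaining 7 members of complex III did not pass. UQCRH, the hinge protein beside cytochrome c1 and the most abundant transcript of the complex, had 365, 337 and 366 in VEC and 331, 367 and 351 in Q63E, with overlapping groups (−0.03, interval −0.15 to 0.10). UQCRC2, the second core protein, had a fold change of −0.03 (interval −0.16 to 0.10) and overlapping groups, and no test of the difference between the 2 core proteins was run. UQCRFS1, the Rieske iron-sulfur protein, was the lowest of all 38 members, with 23.7, 23.8 and 23.6 in VEC and 19.97, 20.4 and 22.3 in Q63E. Its groups did not overlap, and its fold change was −0.18 (adjusted p = 0.0652). UQCRB, a small subunit at the ubiquinone site, also had separate groups, at −0.20 (adjusted p = 0.104). UQCRQ, UQCR10 and UQCR11, small subunits of the membrane part, had overlapping groups and fold changes of 0.07, −0.06 and −0.09. The median of complex III was −0.06, with 1 of 9 members higher and 1 lower. The shares over all genes with a mean of at least 20 were 15.1% higher and 20% lower. Left without VEC replicate 1 that median was −0.01, and without VEC replicate 3 it was −0.10.

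In complex IV, 1 of 10 members passed the threshold, as lower. For all genes with a mean of at least 20 the shares were 15.1% higher and 20% lower. COX6C, a small subunit that spans the membrane, lies at chr8:99873200-99894062 on the minus strand (ENSG00000164919). It had 350, 278 and 273 in VEC and 193, 230 and 227 in Q63E. The groups did not overlap, but VEC 1 lay well above the other VEC libraries and the spread of both groups was wide. The mean fell by 27.8%, with a log2 fold change of −0.46 (SE 0.11, adjusted p = 0.0274). The call was lost when any of the 3 Q63E libraries was left out, with adjusted p of 0.0795, 0.0532 and 0.0617 without replicates 1, 2 and 3.

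COX4I1, the largest nuclear subunit and a site of regulation by ATP, was the most abundant of all members in both groups, with 659, 552 and 596 in VEC and 553, 614 and 600 in Q63E. Its groups overlapped (−0.03, interval −0.20 to 0.14). COX5B, a zinc-binding subunit on the matrix side, had the highest fold change of the complex, and its 147, 130 and 150 in VEC overlapped with 145, 157 and 149 in Q63E (0.08, interval −0.07 to 0.24). COX8A, a small membrane subunit, had 617, 579 and 598 in VEC and 541, 572 and 556 in Q63E. Its groups did not overlap, but −0.10 did not pass (adjusted p = 0.0915). COX5A, a subunit on the matrix side, also had separate groups (−0.13, adjusted p = 0.21). COX6A1, COX6B1, COX7A2, COX7B and COX7C had overlapping groups and fold changes from −0.21 for COX7B to 0.06 for COX6A1. COX7B was the lowest transcript of the complex, at 43.8 ± 6.15 in VEC and 37.6 ± 3.85 in Q63E. The median over complex IV was −0.08. It was −0.02 without VEC replicate 1 and −0.04 without Q63E replicate 1.

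**Figure D2:**
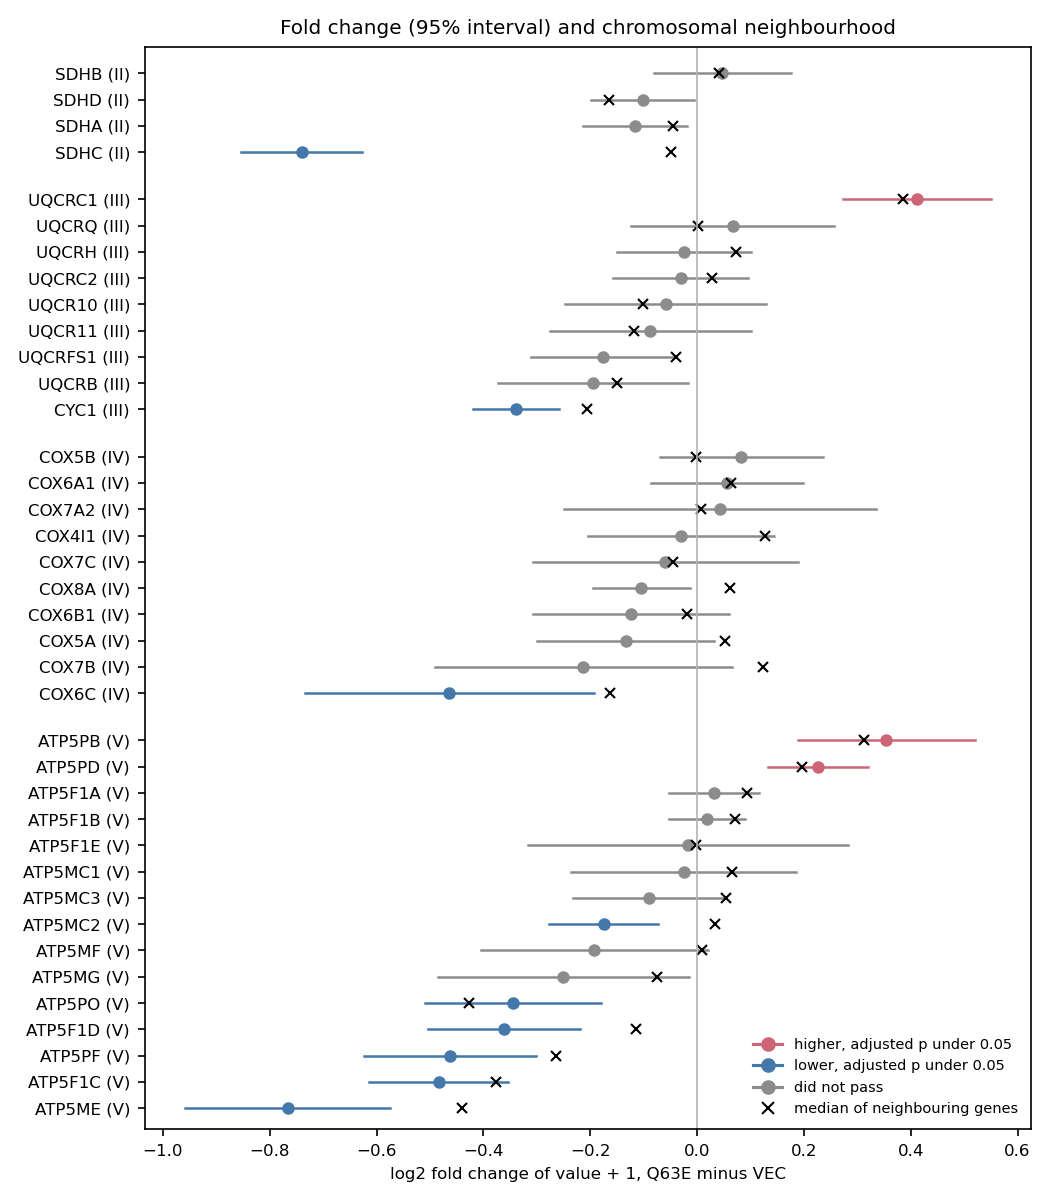
Log2 fold change (Q63E minus VEC, x axis) of each member with its 95% interval, ordered within each complex; red and blue mark members past the threshold, grey those that did not pass, and crosses give the median fold change of the tested genes around each member on its chromosome. Complex V, with 15 of the 38 members, holds 8 of the 12 coloured ones, and the cross of SDHC at −0.05 lies far from its point at −0.74.

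Complex V, with 15 of the 38 members, held 8 of the 12 past the threshold, with 2 genes higher, 6 lower and a median of −0.17. Of all genes with a mean of at least 20, 15.1% were higher and 20% lower. Differences between the complexes, or between the parts of complex V, were not tested. The complex consists of the F1 head that makes ATP, the c ring that turns as protons pass, a peripheral stalk that keeps the head from turning, and membrane subunits that bend the membrane and join 2 complexes into dimers. All 4 genes of the peripheral stalk passed, 2 in each direction. Of the 5 F1 genes 2 were lower, of the 3 c ring genes 1 was lower, and of the 3 genes for subunits e, f and g 1 was lower. Without Q63E replicate 1 the median of complex V was −0.11.

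In the F1 head, both subunits of the nucleotide sites stayed short of the threshold, and 2 of the 3 subunits of the central stalk were lower. ATP5F1A and ATP5F1B, the alpha and beta subunits that form the nucleotide sites, had fold changes of 0.03 (interval −0.05 to 0.12) and 0.02 (interval −0.05 to 0.09). ATP5F1B had 492, 486 and 479 in VEC and 483, 496 and 497 in Q63E, and it was the most abundant transcript of the complex in Q63E. These intervals were among the narrowest of all members, and the groups overlapped. ATP5F1C, the gamma subunit that forms the rotating shaft (chr10:7788129-7807815, plus strand, ENSG00000165629), had 183, 163 and 172 in VEC and 117, 125 and 128 in Q63E. The groups were far apart, with a log2 fold change of −0.48 (SE 0.05, adjusted p = 0.00157). ATP5F1D, the delta subunit at the foot of that shaft (chr19:1241746-1244826, plus strand, ENSG00000099624), had 121, 115 and 113 in VEC and 92.4, 83.3 and 95.4 in Q63E. It was lower in every Q63E library (−0.36, SE 0.06, adjusted p = 0.00648). ATP5F1E, the epsilon subunit of the same shaft and the least abundant transcript of the complex, had overlapping groups and a wide interval (−0.02, interval −0.32 to 0.28).

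The peripheral stalk was split. ATP5PB, subunit b, which runs the length of the stalk (chr1:111448864-111462773, plus strand, ENSG00000116459), had 204, 178 and 182 in VEC and 227, 238 and 258 in Q63E. ATP5PD, subunit d (chr17:75038863-75046985, minus strand, ENSG00000167863), had 356, 337 and 327 in VEC and 400, 394 and 399 in Q63E. Both were higher in every Q63E library, at 0.35 (SE 0.07, adjusted p = 0.0126) for ATP5PB and 0.23 (SE 0.04, adjusted p = 0.00782) for ATP5PD. ATP5PF, coupling factor 6 (chr21:25716503-25735673, minus strand, ENSG00000154723), had 168, 154 and 153 in VEC and 106, 114 and 124 in Q63E. ATP5PO, the OSCP subunit that ties the stalk to the head (chr21:33903453-33915980, minus strand, ENSG00000241837), had 155, 141 and 146 in VEC and 106, 126 and 117 in Q63E. Both were lower in every Q63E library, at −0.46 (SE 0.07, adjusted p = 0.00412) for ATP5PF and −0.34 (SE 0.07, adjusted p = 0.0136) for ATP5PO.

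In the membrane, ATP5ME, subunit e of the dimer interface (chr4:672436-674338, minus strand, ENSG00000169020), had the largest fall of all members. Its level was 265, 223 and 242 in VEC and 131, 144 and 153 in Q63E, so that the groups were far apart and the mean fell by 41.4%. The log2 fold change was −0.77 (SE 0.08, adjusted p = 0.0012). Its partners at that interface did not pass: ATP5MF, subunit f, was the most abundant transcript of the complex in VEC with 516, 480 and 560 against 401, 476 and 486 in Q63E (−0.19, adjusted p = 0.164), and ATP5MG, subunit g, went from 88.4 ± 11.9 to 73.7 ± 2.76 (−0.25, adjusted p = 0.112). Both had overlapping groups. The c ring is made from 3 genes, ATP5MC1, ATP5MC2 and ATP5MC3, that encode the same mature protein behind different import sequences. ATP5MC2, the most abundant of them (chr12:53632726-53677408, minus strand, ENSG00000135390), had 344, 315 and 315 in VEC and 286, 288 and 287 in Q63E. Its groups did not overlap (−0.17, SE 0.04, adjusted p = 0.0274), while ATP5MC1 (−0.03, adjusted p = 0.862) and ATP5MC3 (−0.09, adjusted p = 0.314) overlapped between groups. The ATP5MC2 call was lost without any 1 of the Q63E libraries, with adjusted p of 0.0789, 0.0705 and 0.0775.

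The partner subunits from the mitochondrial chromosome were all lower in Q63E, and their mean log2 level per complex differed by more than that of the nuclear members, a difference that is described and was not tested. MT-CO1 differed by less than COX6C, a nuclear member of the same complex. All 6 passed: MT-CYB of complex III (−0.65, adjusted p = 0.000866), MT-CO1, MT-CO2 and MT-CO3 of complex IV (−0.28, −0.52 and −1.29), and MT-ATP6 and MT-ATP8 of complex V (−1.19 and −1.16). The genes MT-ATP8 (chrM:8366-8572) and MT-ATP6 (chrM:8527-9207) overlap on the same strand, so their 2 values may not be independent. The mean log2 level of the nuclear members of complex V was 7.74, 7.57 and 7.64 in VEC and 7.41, 7.48 and 7.55 in Q63E. That of its 2 mitochondrial subunits was 13.12, 13.17 and 13.03 in VEC and 12.07, 11.79 and 11.94 in Q63E. The gap between them, on the log2 scale, thus narrowed from 5.46 ± 0.13 to 4.45 ± 0.18. In complex III it went from 3.67 ± 0.06 to 3.06 ± 0.11, and in complex IV from 5.11 ± 0.11 to 4.50 ± 0.12 (SD, n = 3 each). For all 3 complexes the 3 VEC gaps lay above the 3 Q63E gaps. All genes of the mitochondrial chromosome held 8.44% to 9.44% of the summed value in VEC and 5.58% to 6.27% in Q63E. The 38 nuclear members held 1.01% to 1.13% over the 6 libraries.

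**Figure D3:**
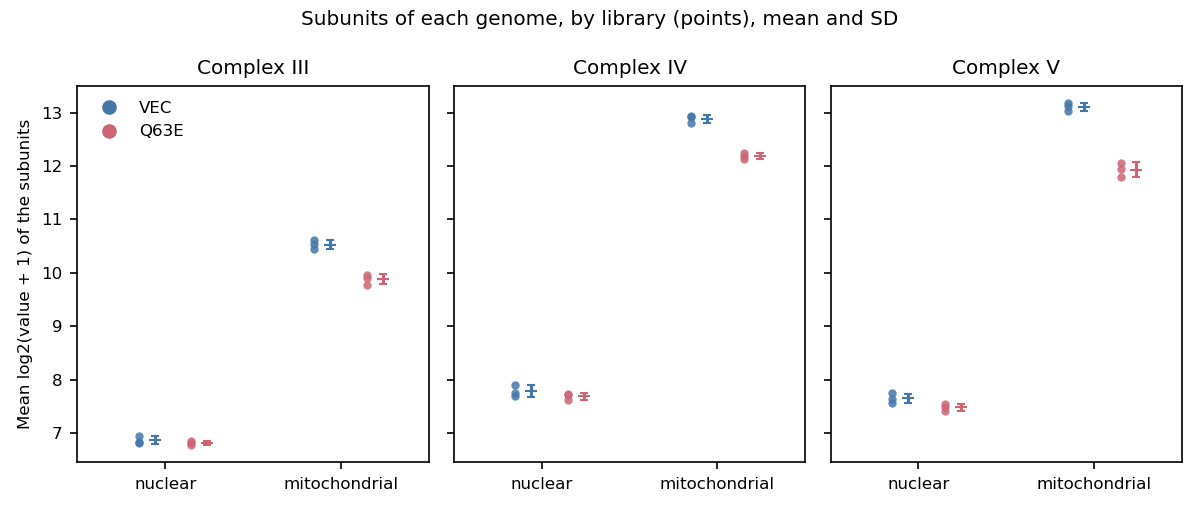
Mean log2(value + 1) of the nuclear members and of the mitochondrially encoded subunits of complexes III, IV and V in each library (points), with mean and SD of each group (n = 3). The mitochondrial means of the Q63E libraries lie below all VEC libraries in each panel, and the difference between groups is −1.17 in complex V against −0.17 for its nuclear members.

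Several of the members that passed lie in stretches of chromosome where most genes moved the same way. For each member, the median fold change was taken over the 25 tested genes on either side of it, with the member itself left out (31 genes for ATP5ME and 26 for SDHA, which lie near chromosome ends). Of the 38 members, 5 had a neighbourhood median at or below −0.2, namely CYC1, ATP5F1C, ATP5PF, ATP5PO and ATP5ME, and all 5 were lower in Q63E. Of the 1253 genes with such a neighbourhood, 49.3% were lower and 2.23% higher. The 2 members with a median at or above 0.2, UQCRC1 and ATP5PB, were both higher, as were 46.3% of the 503 genes with such a neighbourhood. Of the 31 members in between, 1 was higher and 4 lower, against 10.8% and 10.7% of 11526 genes.

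The individual neighbourhoods show this in detail. Around UQCRC1 on chromosome 3, 45 of 50 neighbours were above 0, with a median of 0.38 beside 0.41 for the gene. Around ATP5PB, 43 of 50 were above 0, with a median of 0.31. RHOC itself lies in this part of chromosome 1, 1.24 Mb from ATP5PB with 7 tested genes between them. It is thus 1 of the 50 neighbours counted, and its row also holds the transgene. Whether the place of RHOC bears on these values was not tested. On chromosome 21, 45 of 50 neighbours of ATP5PO and 41 of 50 of ATP5PF were below 0 (medians −0.43 and −0.27), and on chromosome 10 the same held for 45 of 50 neighbours of ATP5F1C (−0.38). Of the 31 neighbours of ATP5ME 28 were below 0 (−0.44). SDHC stood apart from its surroundings, with 31 of 50 neighbours below 0 and a median of −0.05 beside its own −0.74. ATP5MC2 likewise had a neighbourhood median of 0.03 beside −0.17.

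When the neighbourhood median was subtracted in each library and all genes were refitted, 0 members were higher and 6 were lower. Over the 13346 genes tested, this refit gave 1105 higher and 1219 lower. SDHC had −0.69 (adjusted p = 0.000326), ATP5ME −0.32 (adjusted p = 0.0389), ATP5F1D −0.26 (adjusted p = 0.0237), ATP5MC2 −0.18 (adjusted p = 0.0237) and CYC1 −0.17 (adjusted p = 0.0277). COX8A, at −0.14, passed with this subtraction (adjusted p = 0.0475). The calls of UQCRC1 (0.03, adjusted p = 0.748), ATP5PB (0.04, adjusted p = 0.687) and ATP5PD (0.04, adjusted p = 0.645) were lost, as were those of ATP5F1C (−0.11, adjusted p = 0.237), ATP5PF (−0.14, adjusted p = 0.209) and COX6C (−0.31, adjusted p = 0.108). ATP5PO turned in sign, to 0.08 (adjusted p = 0.444). Thus none of the 4 stalk genes passed relative to its neighbours. Across the 38 members the fold change and its neighbourhood median had Pearson's r = 0.80 and Spearman's rho = 0.71. Over 13282 genes they were 0.30 and 0.34. Those genes include ones with low values, whereas all 38 members had a mean of at least 20, and levels were not matched. The correlations are descriptions across genes that share the same libraries and, in part, the same neighbours. The part of the chromosomal surroundings in any call was not tested.

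**Figure D4:**
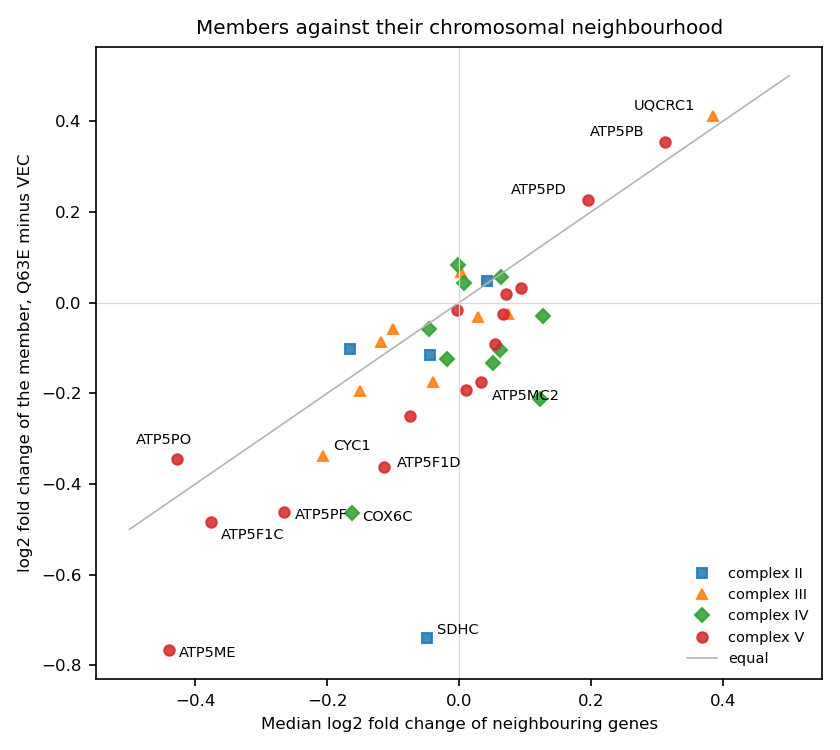
Log2 fold change of each member (y axis, Q63E minus VEC) against the median log2 fold change of its neighbouring tested genes (x axis), with 1 symbol per complex and names for the 12 members past the threshold; the line marks equal values. UQCRC1, ATP5PB and ATP5PD lie close to the line at the upper right, and SDHC at −0.74 lies far below it.

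Some members share bases or a start region with another gene, and the deposited values do not state a strand, so overlapping reads cannot be told apart. GABPA, which encodes the DNA-binding subunit of a factor known for respiratory genes, overlaps ATP5PF over 1104 bases on the opposite strand. It was lower as well, from 9.59 ± 0.35 to 6.62 ± 0.20 (−0.48, adjusted p = 0.00412), and like ATP5PF it did not pass after its neighbourhood was subtracted (−0.16, adjusted p = 0.192). WDR77, which overlaps ATP5PB over 513 bases, was higher (0.39, adjusted p = 0.0236), and KCTD2, which spans ATP5PD over 8123 bases, was higher (0.38, adjusted p = 0.0146). The levels of these partners were a small part of those of the members, 35.0 for WDR77 and 20.4 for KCTD2 in Q63E. LINC00649, which overlaps ATP5PO over 447 bases, was lower (−0.58, adjusted p = 0.0457). ATP5MF-PTCD1, which overlaps ATP5MF on the same strand, was higher, with means of 0.78 in VEC and 3.12 in Q63E (adjusted p = 0.00791). Other members did not pass while a partner with a start close by was lower. UQCRH (−0.03) starts 23 bases from LRRC41, which fell from 36.2 ± 1.19 to 28.2 ± 1.45 (−0.35, adjusted p = 0.00506). ATP5F1A (0.03) shares its start region with HAUS1 (−0.21, adjusted p = 0.0456). COX4I1 (−0.03) overlaps EMC8 on the opposite strand, with starts less than 1000 bases apart (−0.27 for EMC8, adjusted p = 0.0182). The partners named so far are those that passed. Among those that did not were VPS13B, which overlaps COX6C (−0.03, adjusted p = 0.934), and MYL5, which overlaps ATP5ME (−0.87, adjusted p = 0.0552). KIN, which starts 148 bases from ATP5F1C, did not pass either (−0.75, adjusted p = 0.0595).

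Respiratory genes are known for short promoters with sites of NRF1, of the ETS factor GABP and of YY1, and the letters of these sites were looked for in the RefSeq promoter windows of the members (GRCh38.p14, 250 bases before to 50 after a start). A window was given for 30 of the 38, and a gene was counted if any of its windows held the letters on either strand. CCGGAAG, the ETS core, was in 15 of the 30 (50%), against 23.7% of 9846 tested genes and 12.2% of all 27305 genes with a window. TGCGCA, the NRF1 core, was in 10 (33.3%), against 16.5% and 9.76%. AAGATGG, the YY1 core, was in 9 (30%), against 9.73% and 7.11%. In UQCRC1, ATP5ME and ATP5PO these letters begin 23, 26 and 38 bases after the RefSeq start. Whether they lie in coding sequence was not checked. The windows of the members had a median GC content of 58.7%, below the 65% of tested genes. CCGGAAG and AAGATGG can overlap in their letters AAG, which was the case in 0 of the members. In all, 22 of the 30 members held at least 1 of them.

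The motif letters stood in windows of members that rose, fell or did not pass. Of the 8 members past the threshold with a window, 3 held the ETS core, 3 the NRF1 core and 5 the YY1 core, and of the 22 others these numbers were 12, 7 and 4. The windows of 28 bases around the letters are shown for members that rose and members that fell, with the motif in capitals and the strand of the gene. UQCRC1 holds NRF1 letters (chr3:48609789-48609816, minus strand) and YY1 letters (chr3:48609607-48609634, minus strand). ATP5PB has YY1 letters (chr1:111449452-111449479, plus strand) and ATP5PD has ETS letters (chr17:75047054-75047081, minus strand). Among members that fell, ATP5PF has ETS letters 2 times, of which the one at chr21:25734896-25734923 (minus strand) is shown, and YY1 letters (chr21:25735095-25735122, minus strand). ATP5PO has YY1 letters (chr21:33915755-33915782, minus strand) and ATP5MC2 has NRF1 letters (chr12:53676373-53676400, minus strand). ATP5ME has all 3, and its NRF1 letters (chr4:674480-674507), ETS letters (chr4:674257-674284) and YY1 letters (chr4:674234-674261), all on the minus strand, are shown.
UQCRC1 NRF1 core: gtggactgatgTGCGCAgggactggcgg
UQCRC1 YY1 core: actgcagctggAAGATGGcggcgtccgt
ATP5PB YY1 core: cttgtgagcggCCATCTTggtcctgccc
ATP5PD ETS core: ccgggaagataCTTCCGGaaccagccct
ATP5PF ETS core: cggagccagggCCGGAAGtagagcggag
ATP5PF YY1 core: taggcgaagaaAAGATGGcggaggctgt
ATP5PO YY1 core: tacagccgcccgggagAAGATGGctgcc
ATP5MC2 NRF1 core: agtgtgacgacTGCGCAtgctcggaaag
ATP5ME NRF1 core: cacgcagcaacTGCGCAggcgcagccga
ATP5ME ETS core: tgcaggttgtgCTTCCGGtgcggaggtc
ATP5ME YY1 core: aggtcagggacAAGATGGtgccaccggt
UQCRC1 and ATP5ME, the members with the highest and the lowest fold change, thus both held NRF1 and YY1 letters. A match is a description of letters and shows no binding. The factors themselves were measured. NRF1 went from 10.3 ± 0.23 to 8.75 ± 0.48 (−0.21, adjusted p = 0.0661). Relative to its neighbours NRF1 passed as lower (−0.26, adjusted p = 0.049). YY1 went from 26.4 ± 1.66 to 26.6 ± 0.77 (0.01, adjusted p = 0.922). GABPB1, the partner of GABPA, went from 14.8 ± 0.84 to 13.3 ± 0.92 (−0.14, adjusted p = 0.22). YY1 and GABPB1 did not pass relative to their neighbours (adjusted p = 0.787 and 0.155).

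Genes that serve the same complexes were read out of the same fit. Of 44 assembly factors of complexes II to V, 43 were tested, and 1 was higher and 3 were lower, with a median of −0.03. Of all genes tested, 11.3% were higher and 14% lower. COX18, which inserts a mitochondrially encoded subunit of complex IV into the membrane, had 7.37, 8.63 and 8.54 in VEC and 4.36, 4.50 and 4.19 in Q63E (−0.78, adjusted p = 0.00177). CMC2, another complex IV factor, had 86.9, 87.1 and 94.4 in VEC and 63.7, 68.1 and 65.1 in Q63E (−0.44, adjusted p = 0.00149). TMEM70, which helps to build the c ring of complex V, had 41.4, 39.0 and 36.6 in VEC and 24.7, 24.9 and 31.7 in Q63E (−0.52, adjusted p = 0.0144). All 3 were lower in every Q63E library and still passed after neighbourhood subtraction. HIGD1A, a complex IV interactor known from hypoxia, rose from 89.3 ± 4.19 to 113 ± 9.10 (0.33, adjusted p = 0.014) but did not pass relative to its neighbours (0.01, adjusted p = 0.968). None of the 4 complex II and 7 complex III factors passed. With neighbourhood medians subtracted, 1 assembly factor was higher and 5 were lower. Those that passed only there were SURF1 (0.34, adjusted p = 0.0366) and TACO1 (−0.30, adjusted p = 0.0308) of complex IV, and SDHAF2 of complex II (−0.27, adjusted p = 0.0475).

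The alternative subunits show which forms of cytochrome c oxidase these cells transcribe. COX4I2, COX6A2, COX7B2 and COX8C were listed at 0 in all 6 libraries, and COX6B2 and COX7A1 had means of at most 0.18, against 72.6 for COX7A2 and 154 for COX6B1 in VEC. COX7A2L, which takes part in joining complexes III and IV into supercomplexes, rose by a small amount, from 74.1 ± 3.03 to 82.8 ± 1.91 (0.16, adjusted p = 0.0391), and did not pass relative to its neighbours (0.06, adjusted p = 0.39). NDUFA4, now counted with complex IV, did not pass (0.02, adjusted p = 0.935), nor did ATP5IF1, the inhibitor of ATP synthase, at 213 ± 1.75 and 217 ± 4.23 (0.03, adjusted p = 0.52). Cytochrome c (CYCS), which shuttles between complexes III and IV, went from 96.0 ± 4.21 to 84.0 ± 8.09 (−0.19, adjusted p = 0.107).

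Complex II is also an enzyme of the citrate cycle, and 12 other genes of that cycle were read out, with 1 higher, 2 lower and a median of −0.09. The background for each list in this paragraph is the 11.3% higher and 14% lower of all genes tested. MDH2, malate dehydrogenase, went from 117 ± 5.79 to 93.7 ± 0.36 (−0.31, adjusted p = 0.00372) and IDH3A, a subunit of isocitrate dehydrogenase, from 38.4 ± 1.19 to 32.9 ± 0.93 (−0.22, adjusted p = 0.0161). SUCLG2, of succinyl-CoA synthetase, rose from 28.2 ± 1.28 to 35.8 ± 1.68 (0.34, adjusted p = 0.00711), a call that was lost relative to its neighbours (0.19, adjusted p = 0.0901). CS did not pass (−0.10, adjusted p = 0.141) but did relative to its neighbours (−0.18, adjusted p = 0.0383). FH, fumarase, which acts on the product of complex II, did not pass (−0.08, adjusted p = 0.289). Among 10 regulators of respiratory genes, PPARGC1A and PPARGC1B had means under 1 and were not tested. Of the other 8, CHCHD2 was higher (0.23, adjusted p = 0.00895, and 0.14 with adjusted p = 0.0582 relative to its neighbours) and GABPA and ESRRA were lower (−0.48 and −0.36). The 37 nuclear subunits of complex I, for comparison, had 0 higher, 7 lower and a median of −0.09, near the −0.10 of the 38 members, and no test of that difference was run.

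**Figure D5:**
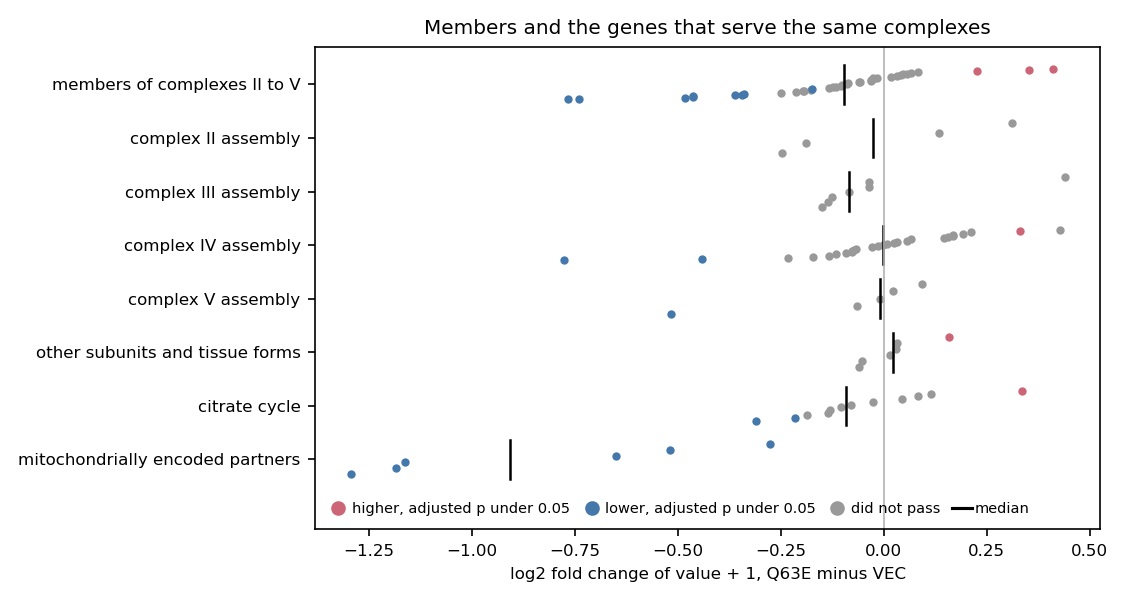
Log2 fold change (Q63E minus VEC) of the members and of the genes of 7 related lists, 1 point per tested gene, with red and blue for genes past the threshold and a bar at the median of each list. The 6 mitochondrially encoded partners lie from −1.29 to −0.28, whereas the medians of the assembly factor lists lie between −0.09 and −0.00.

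Within a group, the members varied together. VEC 1 was the highest VEC library for 32 of the 38 members (84.2%), against 33.8% of all genes tested, and the lowest for 0 of them. Q63E 1 was the lowest Q63E library for 29 members (76.3%), against 35.5% of all genes tested. The median coefficient of variation of the members was 5.43% in VEC and 5.31% in Q63E. With these libraries the largest difference between 2 VEC libraries in the mean log2 level was 0.21 for complex IV, which exceeds the difference of −0.09 between the groups. For complex V the 3 Q63E means (7.41 to 7.55) lay below the 3 VEC means (7.57 to 7.74), whereas those of complexes III and IV overlapped. In complex II, where SDHC fell, the means were 6.44 to 6.50 in VEC and 6.20 to 6.25 in Q63E. These means are descriptions over the members, which are not replicates.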

How the data were processed

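Values per gene were used from 6 libraries of T24 RNA, 3 per group. The authors deposited 1 normalised value per row and library, taken here as FPKM (no source states the unit; MT-ATP8 and other short genes rank high, and totals differ between libraries). Recovery of whole reads failed, with 23.8% to 25.0% of low values within 0.1 of a whole number, against 20% with no steps. Per the submitters' processing notes, HISAT2 2.1.0, Bowtie2 and GRCh38.p10 were used, with no role given. The counting tool and the annotation it used were not given in the sources used here.

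Genes with a mean of at least 1 were tested on log2(value + 1) with limma 3.58.1 in R 4.3.3 (lmFit, eBayes with trend), two-sided, with group as the only term and Benjamini-Hochberg adjustment over 13346 genes. These steps were tested on simulated data. Symbols came from a gene table, and coordinates from GENCODE 29 on GRCh38. Promoters are RefSeq windows. The members, gene lists and tests were chosen with earlier results of these data known. Every member past the threshold, and those with the highest or lowest fold change or the highest level in a complex, are given in every library. Of the other lists, genes that passed are named, except complex I subunits, which are given as counts. Others are named for a role that bears on a member, chosen after their values were seen. Of the gene lists, 2 entries are not reported here. The alternatives were other pseudocounts, filters, priors, scalings, a replicate block, subtraction of neighbourhood medians and leaving out each library.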

Additional observations from a re-analysis of the deposited data

How the results depend on the processing

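Across 17 alternatives, SDHC, CYC1, ATP5F1D and ATP5ME passed in every one. UQCRC1, ATP5PB, ATP5PD, ATP5F1C and ATP5PF lost their call only when neighbourhood medians were subtracted. That left 0 members higher (3 as reported) and 6 lower (9 as reported), with 1105 genes higher and 1219 lower in all. It turned ATP5PO to 0.075 (adjusted p = 0.444). COX6C and ATP5MC2 each lost their call in 6 alternatives, among them no filter on low values (adjusted p = 0.0703 and 0.0583). COX8A passed in 3 alternatives, and UQCRFS1, UQCRB and ATP5MG in 1 each. The median of complex II was −0.073 when each library was scaled to the same sum and −0.069 after quantile normalization, and it was −0.051 relative to the neighbourhood. In the same order the median was −0.022, −0.034 and −0.029 for complex III (−0.059 as reported). For complex IV it was −0.045, −0.066 and −0.126 (−0.082), and for complex V −0.138, −0.139 and −0.114 (−0.175). Scaling without the mitochondrial chromosome gave −0.121, −0.071, −0.094 and −0.187 for complexes II, III, IV and V. With that scaling 1870 genes and 10 members were lower. Leaving out 1 library gave 992 to 1138 genes and 3 members higher, and 1314 to 1483 genes and 7 to 11 members lower. The median of complex V then ran from −0.20 to −0.11. Replicate numbers did not pair the libraries, since same-numbered deviations correlated at −0.042, −0.009 and −0.025. With the replicate block 942 genes and 3 members were higher, and 1266 genes and 6 members were lower. ATP5PO (adjusted p = 0.0561), COX6C and ATP5MC2 did not pass, and no other member call changed. Unknown depth gives no counting limit on low genes.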
